A study of Mus musculus with 2 samples.

Results

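The levels of 9 vessel barrier genes were described in single cells of the mouse trigeminal ganglion (TG): the tight junction genes Cldn5, Ocln and Tjp1, the efflux pumps Abcb1a and Abcg2, the uptake carriers Slco1a4, Slc2a1 and Mfsd2a, and Plvap, a gene of leaky vessels. They were chosen by name out of the 39098 gene symbols in the count files, and all 9 had counts in both libraries. The right TGs came from male C57BL/6 mice of 5 to 8 weeks. One library, called control here, is from mice that the sample label calls untreated, whereas the study's methods describe a saline injection into the right vibrissal pad for its control group. The other, called CFA here, is from mice given 20 μL of complete Freund's adjuvant, mixed 1:1 with saline, in the right vibrissal pad, and was made 7 days later. Complete Freund's adjuvant is an emulsion of killed mycobacteria in oil that causes lasting inflammation where it is injected, and the TG holds the neurons that innervate the pad. A single BD Rhapsody whole transcriptome library was made per condition, and the number of mice in a library is not given, so no difference between control and CFA has a replicate check and no p-value was computed.

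The brain and the peripheral nerve keep their vessels tight. Endothelial cells there are joined by tight junctions, carry few vesicles across the cell, pump foreign compounds back into the blood and take up glucose and lipids through dedicated carriers. In nerve this is called the blood-nerve barrier, and it has 2 layers, the endothelial cells (ECs) of the endoneurial vessels and the sheath cells of the perineurium, which continue at the root into the arachnoid barrier of the meninges. Sensory ganglia are known as sites where vessels around the neuron bodies are leakier than those of the nerve.

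ECs were the cells that lay in the endothelial cluster and held at least 2 unique molecular identifiers (UMIs) of Cldn5 and Flt1 together, Flt1 being an endothelial receptor for vascular growth factors. Such cells numbered 281 in control and 160 in CFA, 4.2% and 4.37% of the cells kept. They held 487969 and 280588 UMIs in all, with medians of 1383 and 1559 UMIs per cell. The gate alone took a further 18 control and 7 CFA cells that lay in other clusters, and 10 and 2 cells of the endothelial cluster did not reach it. Of the ECs, 9 control and 2 CFA cells had exactly 2 gate UMIs, while 5 and 1 cells of the cluster had 1 UMI. Since Cldn5 is part of the gate, its level in ECs is partly set by how they were chosen, and so is that of Flt1. The class carried all 8 endothelial markers (Emcn, Ly6c1, Kdr, Tie1, Egfl7, Tek, Ptprb and Eng) in both libraries, together 8386 CPM (UMIs scaled to 1000000 in the class and library) in control and 8628 CPM in CFA. Markers of other classes were also counted in ECs. Those of myelinating Schwann cells summed to 4162 CPM in control and 2313 CPM in CFA, and those of satellite glial cells to 2332 and 2566 CPM. Fibroblast markers summed to 1053 and 453 CPM, erythroid markers to 775 and 1949 CPM, and mural cell markers to 320 and 520 CPM. The satellite glial sum was mostly Glul, at 1764 and 2263 CPM. Mgp, a leading gene of the arterial-like ECs described below, made up 410 and 367 CPM of the fibroblast sum. Whether ECs themselves made some of this RNA was not tested. Over all kept cells the libraries differed in depth, with 6695 control cells at a median of 1448 UMIs and 3661 CFA cells at 1192 UMIs, and they shared 27 cell barcodes. The other classes were fibroblasts (FBs), mural cells, erythroid cells, neurons, immune cells (ICs), myelinating and non-myelinating Schwann cells, the satellite glial cells that wrap neuron bodies (SGCs) and oligodendrocyte-like cells (OLCs). Mural cells were few, at 69 in control and 24 in CFA.

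Where the members lie and what stands before them is shown for 3 of them, because they mark the ends of the range found here: Cldn5 and Slco1a4 had nearly all of their UMIs in ECs, while Mfsd2a had most of its UMIs in glia. The sequences are the 250 bases before the annotated start, from RefSeq on GRCm38.p6, written 5′ to 3′ on the strand of the gene. Matches to 3 short motifs of factors used in barrier vessels were sought on both strands and stand in capitals: CTTTGA of TCF/LEF factors, GGAAGT of ETS factors and ACAATG of SOX factors. The first lay in 14.0% of 27025 mouse promoters of the same length, the second in 20.0% and the third in 11%. The Cldn5 gene lies at chr16:18776847-18778262 on the forward strand, and its window, chr16:18776597-18776846, held none of the 3. Slco1a4 lies at chr6:141805440-141856199 on the reverse strand, and its window, chr6:141856221-141856470, held 2 SOX matches. Mfsd2a lies at chr4:122946850-122961188 on the reverse strand, and its window, chr4:122961189-122961438, held 1 TCF/LEF match. These letters are a description of the windows and not evidence of binding. Of the other members, Ocln lies at chr13:100496507-100552718, Tjp1 at chr7:65296165-65527781 and Plvap at chr8:71497765-71511752 on the reverse strand, and Abcb1a at chr5:8660077-8748575, Abcg2 at chr6:58584523-58695676 and Slc2a1 at chr4:119108711-119137983 on the forward strand (GRCm38, GENCODE M21).
Cldn5: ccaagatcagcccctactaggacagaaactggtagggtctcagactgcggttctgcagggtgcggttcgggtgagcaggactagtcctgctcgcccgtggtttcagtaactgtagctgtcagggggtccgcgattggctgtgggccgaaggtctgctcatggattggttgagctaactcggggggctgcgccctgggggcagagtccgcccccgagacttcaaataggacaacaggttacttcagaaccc
Slco1a4: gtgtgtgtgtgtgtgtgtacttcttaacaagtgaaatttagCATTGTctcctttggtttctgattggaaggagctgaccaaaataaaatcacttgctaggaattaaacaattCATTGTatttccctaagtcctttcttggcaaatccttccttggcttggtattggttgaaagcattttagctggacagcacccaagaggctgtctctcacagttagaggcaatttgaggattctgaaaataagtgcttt
Mfsd2a: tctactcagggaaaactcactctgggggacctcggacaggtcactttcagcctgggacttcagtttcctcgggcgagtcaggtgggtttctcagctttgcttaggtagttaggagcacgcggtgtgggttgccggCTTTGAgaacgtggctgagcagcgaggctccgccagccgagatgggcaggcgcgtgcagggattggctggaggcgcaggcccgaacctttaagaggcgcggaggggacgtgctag

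All 9 members had their highest level in ECs in both libraries, against 17.5% of the 2866 genes with at least 50 endothelial UMIs. Of the 9, 6 genes, Cldn5, Ocln, Abcb1a, Abcg2, Slco1a4 and Slc2a1, were at least 4 times higher in ECs than in any other class in both libraries, against 4.01% of the same genes. The members were chosen as vessel barrier genes, with earlier results of these data known, so both contrasts are partly set by that choice. Cldn5 is part of the gate, so its place in both counts is also partly set by how ECs were chosen. In CFA the intervals of ECs against the next class included no difference for Mfsd2a and Plvap. Tjp1 and Mfsd2a missed this in both libraries, with myelinating Schwann cells as the nearest class. Other classes were also within 4 times of ECs. For Mfsd2a these were SGCs, at 3.15 and 2.32 times, and control erythroid cells, at 3.68 times. For Tjp1 they were control erythroid cells, at 3.93 times, and CFA mural cells, at 3.15 times. Plvap missed the 4 times in the CFA library, where 1 UMI in the small mural class stood close to the endothelial level. Intervals here and below are exact 95% intervals that cover counting error only, not the variation between mice. Those of levels and ratios take UMIs as independent and leave out the variation between cells too. UMIs of a gene can lie in few cells, as 7 of the 10 Plvap UMIs of CFA ECs lay in 3 cells.

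**Figure D1:**
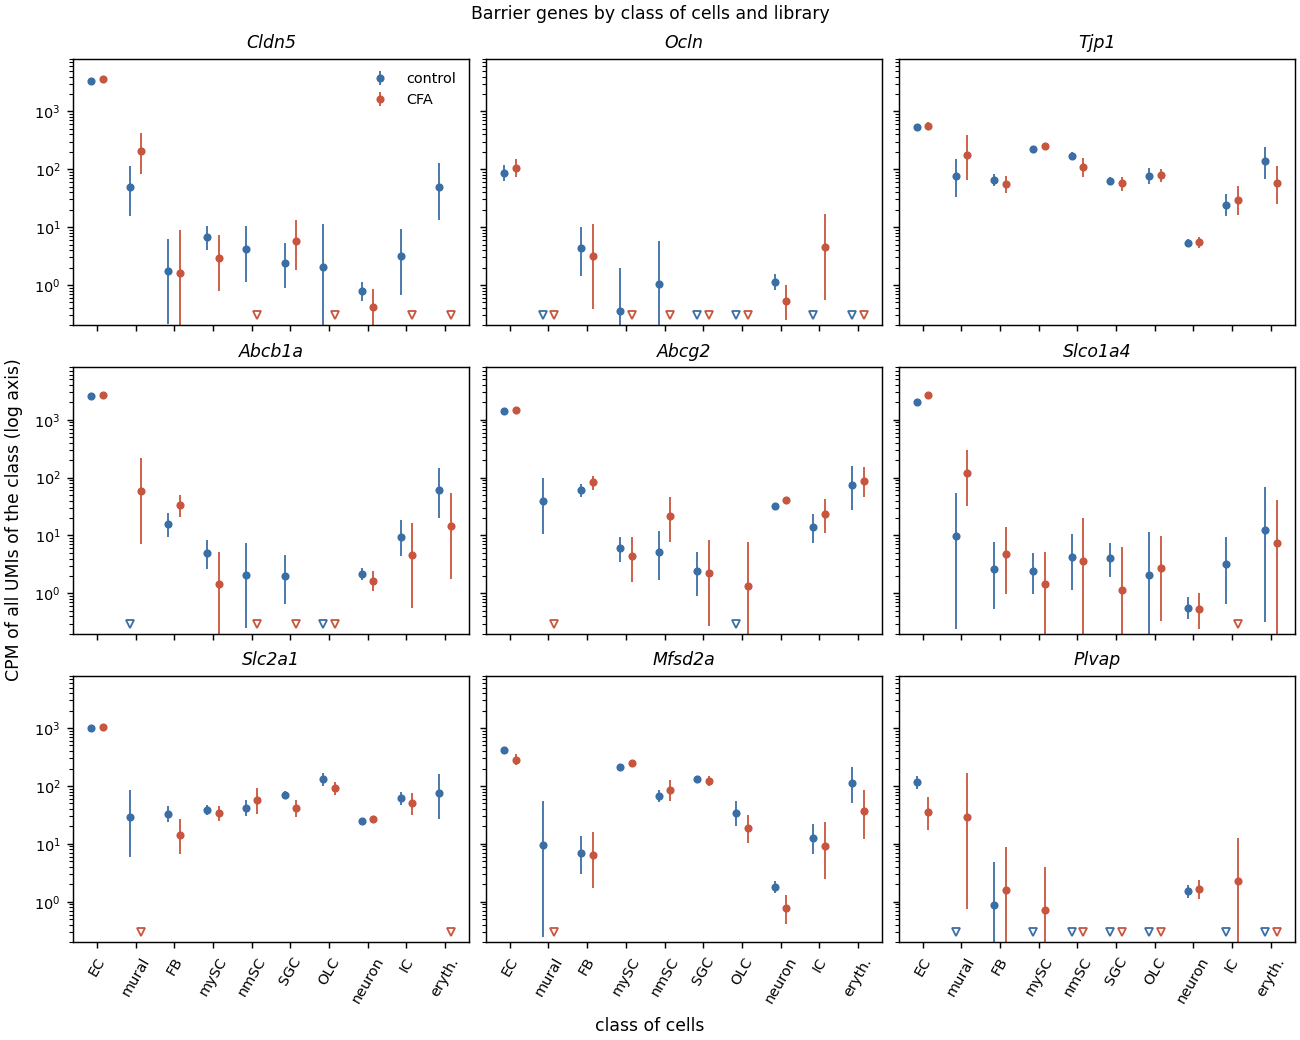
Level of each of the 9 barrier genes in CPM (log axis) in 10 classes of cells, control in blue and CFA in red, with exact 95% Poisson intervals of 1 library each. Open triangles at the bottom mark classes with 0 UMIs, and the highest point of every panel is that of the ECs in both libraries.

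Cldn5, the main sealing claudin of barrier endothelium, stood at 3285 CPM in control ECs (1603 UMIs) and at 3582 CPM in CFA ECs (1005 UMIs). ECs held 95.6% of all Cldn5 UMIs of the classes in control and 97.7% in CFA. The next class was erythroid cells in control with 4 UMIs and mural cells in CFA with 7 UMIs, and the 7 lay in 1 mural cell, which also carried the 4 Slco1a4 UMIs of that class. Against these, ECs were 66.3 times (25.8 to 244) and 17.3 times (8.35 to 43.1) higher. A Cldn5 UMI was found in 93.2% of control ECs and 96.2% of CFA ECs, and in 70.8% and 82.5% after each cell was thinned to 500 UMIs. In SGCs, which should lack the gene and had medians of 1962.5 and 1761.5 UMIs, 0.346% and 0.889% of the cells had one.

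Ocln, which encodes the tight junction protein occludin, was measured thinly, with 42 UMIs in control ECs (86.1 CPM) and 30 in CFA ECs (106.9 CPM). Its other UMIs lay mostly in neurons, 44 in control and 9 in CFA, but neurons carry far more RNA per cell and their level was 1.14 and 0.535 CPM. The highest class after ECs was FBs in control at 4.37 CPM and ICs in CFA at 4.61 CPM, so ECs were 19.7 times (7.81 to 63.9) and 23.2 times (5.89 to 200) higher. SGCs had 0 Ocln UMIs in both libraries. Only 12.5% of control ECs and 13.8% of CFA ECs had an Ocln UMI, and 3.91% and 5.0% after thinning, against 0 of 1156 and 0 of 450 SGCs, which allow shares of up to 0.26% and 0.667%. At this depth a cell without an Ocln UMI cannot be called a cell without occludin.

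Tjp1 encodes ZO-1, the scaffold that ties junction proteins to actin in many epithelia, glia and endothelia, and it was the most widely shared junction member. ECs held 535 CPM in control (261 UMIs) and 560 CPM in CFA (157 UMIs). Myelinating Schwann cells came next at 219 and 256 CPM, which put ECs 2.44 times (2.1 to 2.82) and 2.18 times (1.8 to 2.64) higher. Non-myelinating Schwann cells had 171 CPM in control and 110 CPM in CFA. ECs held 16.6% and 19.6% of all Tjp1 UMIs. A Tjp1 UMI was found in 52.7% and 55.0% of ECs, and in 21.4% and 21.3% of myelinating Schwann cells, which had lower medians of 1060 and 879 UMIs. After thinning, the shares were 18.1% and 26.2% in ECs and 10.9% and 11.3% in myelinating Schwann cells.

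Abcb1a encodes the mouse P-glycoprotein that pumps many drugs out of barrier endothelium. Its level in ECs was 2535 CPM in control (1237 UMIs) and 2701 CPM in CFA (758 UMIs), and ECs held 90.0% and 93.0% of its UMIs. FBs had 15.7 CPM in control and 33.4 CPM in CFA, and neurons 2.17 and 1.67 CPM. The nearest class was erythroid cells in control with 5 UMIs and mural cells in CFA with 2 UMIs, which ECs exceeded 40.9 times (17.5 to 126) and 45.6 times (12.6 to 377). ECs were 161 times (102 to 273) and 80.9 times (52.6 to 132) above FBs. Mural cells had 0 Abcb1a UMIs in control, where ECs were at least 87.0 times higher when 3 counts are set for the mural class. A UMI of Abcb1a was found in 89.0% of control ECs and 95% of CFA ECs, against 0.173% of control SGCs and 0 of 450 CFA SGCs, which allows a share of up to 0.667%.

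Abcg2, the other large efflux pump of barrier vessels, stood at 1435 CPM in control ECs (700 UMIs) and 1493 CPM in CFA ECs (419 UMIs). Unlike Abcb1a, it had most of its UMIs outside the vessels, with 33.6% in control ECs and 34.7% in CFA ECs. Neurons held 1266 UMIs in control and 701 in CFA, a level of 32.8 and 41.7 CPM. FBs held 60.2 and 82.6 CPM. ECs were 43.8 times (39.9 to 48.0) and 35.8 times (31.7 to 40.5) above neurons. The classes nearest to ECs were the small erythroid classes, with 6 and 12 UMIs, which ECs exceeded 19.3 times (8.82 to 52.8) and 16.9 times (9.58 to 33.0). An Abcg2 UMI was found in 79.7% and 83.1% of ECs and in 0.519% and 0.444% of SGCs.

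Slco1a4, a carrier of organic anions and steroid conjugates found at the brain's vessels, was as strongly endothelial as Cldn5. It stood at 1992 CPM in control ECs (972 UMIs) and 2623 CPM in CFA ECs (736 UMIs), with 94.9% and 97.0% of its UMIs in ECs. The nearest class in control was erythroid cells with 1 UMI, which ECs exceeded 161 times (28.8 to 6360), and mural cells, also with 1 UMI, followed at 205 times (36.7 to 8110). Against SGCs, with 10 UMIs, ECs were 496 times (268 to 1040) higher in control. In the CFA library the nearest class was mural cells, where the 4 UMIs of the cell named above set the ratio at 22.1 times (8.61 to 81.5). A UMI of Slco1a4 was found in 82.9% of control ECs and 87.5% of CFA ECs, and in 55.9% and 68.1% after thinning. In SGCs the unthinned shares were 0.865% and 0.222%.

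Slc2a1 encodes GLUT1, the glucose carrier of barrier endothelium and also of many glia. It stood at 998 CPM in control ECs (487 UMIs) and 1051 CPM in CFA ECs (295 UMIs). OLCs followed at 131 and 91.5 CPM, so ECs were 7.63 times (5.87 to 10.1) and 11.5 times (8.78 to 15.2) higher. SGCs had 70.3 and 42.0 CPM, and neurons 24.8 and 27.1 CPM. ECs held 25.1% of Slc2a1 UMIs in control and 31.1% in CFA. A UMI of Slc2a1 was found in 56.2% of control ECs and 70.0% of CFA ECs. Thinned to the same depth these shares were 32.4% (26.9% to 38.2%) and 36.9% (29.4% to 44.9%), whose intervals overlap.

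Mfsd2a carries lysophospholipids with omega-3 fatty acids and holds down vesicle transport across barrier endothelium. It was the member least particular to ECs. The level was 410 CPM in control ECs (200 UMIs) and 285 CPM in CFA ECs (80 UMIs). Myelinating Schwann cells had 211 CPM (601 UMIs) and 251 CPM (345 UMIs), SGCs 130 and 123 CPM, and non-myelinating Schwann cells 67.7 and 85.2 CPM. ECs exceeded myelinating Schwann cells 1.94 times (1.65 to 2.28) in control and 1.14 times (0.881 to 1.45) in CFA, and the second interval includes no difference. Only 15.3% and 13.4% of Mfsd2a UMIs lay in ECs. A UMI of Mfsd2a was found in 34.5% and 27.5% of ECs, in 17.4% and 16.9% of myelinating Schwann cells and in 21.4% and 19.8% of SGCs. These glial shares lie far above those of FBs, at 1.18% and 0.744%, which had medians of 1744 and 1271 UMIs.

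Plvap encodes the protein of the diaphragms in fenestrae and caveolae, and barrier endothelium loses it as it matures. It stood at 117 CPM in control ECs (57 UMIs) and 35.6 CPM in CFA ECs (10 UMIs). In control the next class was neurons at 1.501 CPM, so ECs were 77.8 times (53.0 to 114) higher. SGCs had 0 Plvap UMIs in both libraries, and ECs were at least 96.9 times higher in control and at least 10.5 times in CFA when 3 counts are set for SGCs. In CFA the mural class held 1 UMI, 29.6 CPM, and ECs were 1.20 times (0.171 to 52.2) higher, which the depth leaves undecided. A Plvap UMI was found in 34 of 281 control ECs, 12.1% (8.53% to 16.5%), and in 6 of 160 CFA ECs, 3.75% (1.39% to 7.98%), and in 0 of 1156 and 0 of 450 SGCs. Plvap overlaps Gtpbp3 on the other strand, and whether the counting used strand is not given, so reads of the pair may not be told apart.

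The number of members found in each EC was counted. The median EC had UMIs of 5 members in control and of 6 in CFA. At least 5 members were found in 190 of 281 control ECs (67.6%) and 120 of 160 CFA ECs (75.0%), none of the ECs lacked all members, and the most in a cell was 8. Such counts depend on how often each member was found on its own, and whether members went together beyond that was not tested. Over single ECs, Pearson's r between members ran from -0.293 (Cldn5 and Plvap) to 0.366 (Abcb1a and Slco1a4) in control. In CFA it ran from -0.267 (Cldn5 and Plvap) to 0.214 (Cldn5 and Slco1a4). Depth also differed along the counts of members. Control ECs with 1 to 4 members had medians between 975 and 1210 UMIs, in no order, and those with 5 to 8 had medians from 1391 to 2598.5 UMIs. In CFA the medians lay between 939 and 1202 UMIs for 1 to 4 members and from 1583.5 to 3099.5 UMIs for 5 to 8.

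Likeness to other genes was measured as Pearson's r of log2(CPM + 1) over the 20 points given by 10 classes in 2 libraries, among 15463 genes, and is given as a description. The pattern of Cldn5 was most like those of Ly6c1, an endothelial surface antigen (r = 0.955), and of Slco1a4 (r = 0.931), and Slco1a4 had Cldn5 as its own nearest gene. Abcb1a was nearest to Cdh5, which encodes the endothelial cadherin of adherens junctions (r = 0.941). Ocln was nearest to Mecom (r = 0.978), a transcription factor gene, and to the thiamine carrier Slc19a3 (r = 0.934). For the other members the nearest gene was Tob1 for Tjp1 (r = 0.919), Asb4 for Plvap (r = 0.902), Ifit2 for Slc2a1 (r = 0.873), Aif1l for Mfsd2a (r = 0.863) and Hspa12b for Abcg2 (r = 0.83). The points share libraries and depth, several classes are small, and Cldn5 is part of the gate that set the ECs.

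The study's own comparison of CFA with control concerned the neurons, and here the same libraries were compared over ECs. In ECs, Plvap and Mfsd2a were lower in the CFA library, Slco1a4 was higher, and Cldn5 was slightly higher. For Ocln, Tjp1, Abcb1a, Abcg2 and Slc2a1 the counting interval of the ratio included no difference. All ratios here are log2 of CPM in CFA over CPM in control.

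Plvap was the member with the largest ratio, 117 CPM in control and 35.6 CPM in CFA ECs, log2 -1.71 (-2.85 to -0.73). Of the genes tested, 0.593% had a ratio as low or lower, but these were genes of any depth that reached the minimum. Plvap had few UMIs, 57 in control ECs and 10 in CFA ECs. Large ratios were more frequent when genes with fewer UMIs were let in. Past 2-fold were 122 of 2866 genes tested, and 1314 of 8262 at a minimum of 10 UMIs. How Plvap ranks among genes of like depth was not tested. Mfsd2a, at 410 and 285 CPM, had log2 -0.52 (-0.92 to -0.14), and 12.1% of genes were as low or lower. For Slco1a4, at 1992 and 2623 CPM, the ratio was 0.40 (0.26 to 0.54), and 79.8% of genes were as low or lower. Cldn5 had 0.125 (0.0096 to 0.239), Ocln 0.31 (-0.41 to 1.02), and the gate gene Flt1, at 3060 and 3849 CPM, had 0.33. For Tjp1, Abcb1a, Abcg2 and Slc2a1 the ratios lay between 0.058 and 0.092, and each interval included 0. Of the 9 members, 1, Plvap, was at least 2-fold lower in CFA, against 2.83% of the 2866 genes, and 0 were at least 2-fold higher, against 1.43%. The 2866 genes were not matched to the members in depth. The median ratio of the members was 0.075, and that of all genes tested was 0.045.

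**Figure D2:**
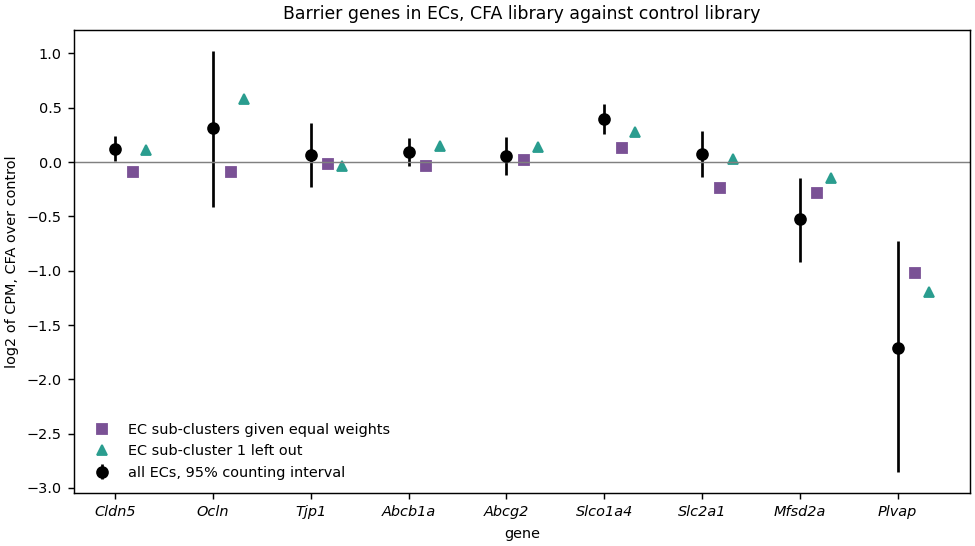
Log2 ratio of CPM in ECs, CFA over control, for the 9 barrier genes, with exact 95% counting intervals for all ECs (black). Purple points, labelled equal weights, give each of the 7 endothelial sub-clusters a weight that is the same in both libraries. Green points leave out sub-cluster 1. Plvap at -1.71 and Mfsd2a at -0.52 lie below 0 with all ECs, and both come closer to 0 under the other weights.

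Some markers of other classes in the ECs differed between the libraries too. The 8 markers of myelinating Schwann cells, a class that also holds Mfsd2a, summed to 4162 CPM in control ECs and 2313 CPM in CFA ECs with none at 0, and their part in the Mfsd2a ratio was not tested. With endothelial sub-cluster 5, which carries glial genes, left out, the Mfsd2a ratio was -0.64 and the Plvap ratio -1.42. Outside the vessels, Mfsd2a was 211 and 251 CPM in myelinating Schwann cells, log2 0.25 (0.054 to 0.44), and 130 and 123 CPM in SGCs, log2 -0.085 (-0.41 to 0.23). Slc2a1 was lower in CFA in SGCs, from 70.3 to 42.0 CPM, log2 -0.74 (-1.30 to -0.22), and in FBs, from 33.2 to 14.3 CPM, log2 -1.21 (-2.45 to -0.14), while ECs stood at 0.075 (-0.14 to 0.29). Both classes differed in make-up. An SGC cluster led by interferon response genes held 224 control and 2 CFA cells. FB sub-cluster 3, with 16 of the 38 Slc2a1 UMIs of control FBs, held 132 of 593 control and 36 of 403 CFA FBs. The part of this in the Slc2a1 ratios was not tested. Abcg2 in neurons was 32.8 and 41.7 CPM, log2 0.35 (0.21 to 0.48). The neuron cluster led by Mrgprd, which had little Abcg2 as given below, held 194 of 821 control neurons and 68 of 428 CFA neurons. The part of these shares in the Abcg2 ratio was not tested.

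The ECs were then divided into 7 sub-clusters without the 9 members, Flt1 or the other barrier genes, so that the members could be described across them. Sub-clusters 0 to 3 were capillary-like by their markers, and 3 of these was led by interferon response genes such as Cxcl10 and Ifit2. Sub-cluster 6 was arterial-like with 8 arterial markers. Sub-cluster 4, led by haemoglobin genes, and 5, led by glial genes such as Fabp7 and Cldn19, were left unnamed. Venous-like and lymphatic-like sub-clusters did not stand out. The libraries differed in their shares: sub-cluster 1, led by Ttyh2, Car14 and Edn3, held 36 of 281 control ECs (12.8%, 9.14% to 17.3%) and 56 of 160 CFA ECs (35.0%, 27.6% to 42.9%), and sub-cluster 0 held 25.3% and 16.9%.

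Cldn5, Slc2a1 and Slco1a4 had higher levels in sub-clusters 1, 2 and 4 than in 0 and 3 in both libraries. Cldn5 was high in sub-clusters 1, 2 and 4, at 4713, 4972 and 5561 CPM in control and at 4089, 4624 and 4096 CPM in CFA. It was lower in sub-clusters 0 and 3, at 2586 and 2389 CPM in control and at 2615 and 2628 CPM in CFA. Slc2a1 had 1687, 1251 and 1584 CPM in sub-clusters 1, 2 and 4 of control against 812 and 679 CPM in 0 and 3. In CFA these were 1307, 1345 and 1560 CPM against 736 and 475 CPM. Slco1a4 in control was 3093, 2759 and 3101 CPM in the former and 1704 and 1744 CPM in the latter, and in CFA it was 3306, 2838 and 2471 CPM against 2285 and 2153 CPM. For all 3 genes the counting interval of sub-cluster 1 lay above those of 0 and 3 in both libraries. Some intervals of the others overlapped, as for Slco1a4 in CFA, which was 1748 to 3391 CPM in sub-cluster 4 and 1838 to 2809 CPM in sub-cluster 0, and for Slc2a1 in sub-clusters 2 and 0 of both libraries. In sub-cluster 1 against all other ECs, Slc2a1 was higher by log2 1.00 (0.71 to 1.28) in control and 0.60 (0.27 to 0.94) in CFA, and Slco1a4 by 0.82 (0.62 to 1.03) and 0.65 (0.43 to 0.86). The thyroid hormone and organic anion carrier Slco1c1, a gene of the uptake list, divided likewise, at 1395, 1123 and 1415 CPM in sub-clusters 1, 2 and 4 of control and 211 and 68.8 CPM in 0 and 3. In CFA it was 1849, 1835 and 1690 CPM against 229 and 83.9 CPM.

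Mfsd2a and Plvap had other patterns. Mfsd2a was high in sub-clusters 0, 2 and 3 of control, at 591, 561 and 516 CPM, and lower in sub-cluster 1 at 270 CPM. In CFA these were 279, 709 and 363 CPM, and 133 CPM in sub-cluster 1. In sub-cluster 1 against the other ECs it was lower by log2 -0.71 (-1.39 to -0.088) in control and -1.58 (-2.47 to -0.77) in CFA. Plvap had 0 UMIs in sub-cluster 1 in both libraries, in 36 and 56 cells, which allows a level of up to 33.7 and 24.98 CPM at 3 counts. It also had 0 UMIs in sub-clusters 4 and 6, where the bounds are wide. They are 101 CPM in control and 195 CPM in CFA for sub-cluster 4, and 75.1 and 219 CPM for sub-cluster 6. Its 57 control UMIs lay in sub-clusters 0, 2, 3 and 5, with 13, 10, 21 and 13 UMIs. Its 10 CFA UMIs lay in sub-clusters 0 and 3, with 7 and 3 UMIs.

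**Figure D3:**
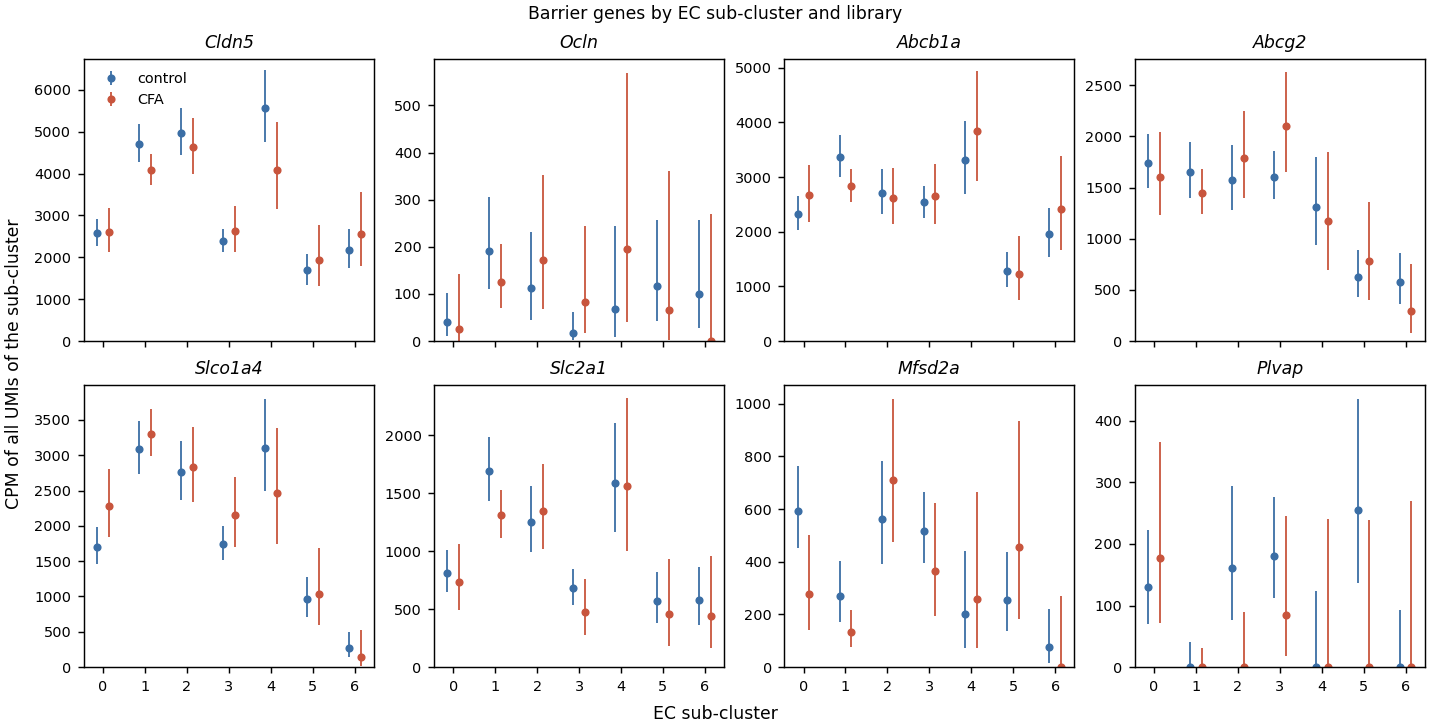
Level of 8 barrier genes in CPM in the 7 endothelial sub-clusters, control in blue and CFA in red, with exact 95% Poisson intervals; each panel has its own scale, starting at 0. Cldn5, Slco1a4 and Slc2a1 are higher in sub-clusters 1, 2 and 4 than in 0 and 3 in both libraries. Slco1a4, Abcg2 and Mfsd2a are low or at 0 in the arterial-like sub-cluster 6. Plvap is at 0 in sub-clusters 1, 4 and 6, of which 4 and 6 have few cells.

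The arterial-like ECs, 17 in control and 7 in CFA, held less Cldn5, Slc2a1, Slco1a4, Abcg2 and Mfsd2a than the other ECs. For Tjp1 the intervals included no difference. Cldn5 was 2179 CPM in control and 2560 CPM in CFA, against 3384 and 3634 CPM in the other ECs, log2 -0.635 (-0.964 to -0.323) and -0.505 (-1.04 to -0.0195). Slc2a1 was 576 and 439 CPM against 1036 and 1083 CPM, log2 -0.846 (-1.52 to -0.243) and -1.30 (-2.76 to -0.163). Slco1a4 was 276 CPM in control and 146 CPM in CFA, against 2145 and 2750 CPM in the other ECs, log2 -2.96 (-3.97 to -2.12) and -4.23 (-7.28 to -2.37). Abcg2 was 576 and 293 CPM against 1511 and 1555 CPM, log2 -1.39 (-2.06 to -0.79) and -2.41 (-4.29 to -1.04). Mfsd2a had 3 UMIs in control, 75.1 CPM, and 0 in CFA. Abcb1a was 1953 CPM against 2587 CPM in control, log2 -0.40 (-0.76 to -0.074), and 2414 against 2716 CPM in CFA, log2 -0.17 (-0.72 to 0.33). Tjp1 was 551 CPM (22 UMIs) against 533 CPM in control, log2 0.0465 (-0.655 to 0.678). In CFA it was 512 CPM (7 UMIs) against 562 CPM, log2 -0.134 (-1.47 to 0.944). Lower Abcg2 was not particular to these cells, as sub-cluster 5 had 628 CPM in control and 778 CPM in CFA.

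Within sub-clusters the ratios between the libraries often differed from those over all ECs. In sub-cluster 0 Plvap was 130 CPM in control (13 UMIs) and 178 CPM in CFA (7 UMIs), log2 0.45 (-1.12 to 1.88). In sub-cluster 3 it was 181 and 83.9 CPM, log2 -1.11 (-3.49 to 0.64), and in sub-cluster 2 it had 10 UMIs in control, 160 CPM, and 0 in CFA, with an interval that lay below -0.555. In sub-cluster 5 it had 13 UMIs in control, 255 CPM, and 0 in CFA, where the interval reached 0.117. Plvap was thus lower in CFA in 3 of the 4 sub-clusters that held it, and for 1 of them the interval excluded no difference. Mfsd2a had log2 -1.08 (-2.16 to -0.14) in sub-cluster 0, -1.02 (-2.03 to -0.046) in sub-cluster 1 and 0.34 (-0.42 to 1.09) in sub-cluster 2. Slco1a4 had 0.42 (0.038 to 0.80) in sub-cluster 0, 0.096 (-0.13 to 0.32) in sub-cluster 1 and 0.041 (-0.31 to 0.39) in sub-cluster 2. In sub-clusters 3, 4, 5 and 6 Slco1a4 had 0.303, -0.328, 0.11 and -0.913. Mfsd2a had -0.505, 0.363 and 0.832 in sub-clusters 3, 4 and 5, and 3 and 0 UMIs in 6. The intervals of both genes in sub-clusters 3 to 6 included no difference. Some members with little or no difference over all ECs were lower in CFA within a sub-cluster. Cldn5, slightly higher in CFA over all ECs, had -0.205 (-0.396 to -0.0134) in sub-cluster 1 and -0.441 (-0.884 to -0.014) in sub-cluster 4. In sub-cluster 1 Abcb1a had -0.253 (-0.481 to -0.0243) and Slc2a1 -0.368 (-0.70 to -0.0353). With each sub-cluster given the same weight in both libraries, the ratio of Slco1a4 was 0.134, that of Mfsd2a -0.288 and that of Plvap -1.02. Cldn5 turned from 0.125 to -0.087 in that setting. With sub-cluster 1 left out, Slco1a4 stood at 0.274, Cldn5 at 0.11, Mfsd2a at -0.145 and Plvap at -1.20. Mfsd2a then rested on 176 and 64 UMIs. The ratios in these 2 settings are given without intervals. The shares of the sub-clusters differ between the libraries, and so do those of other cells. OLCs were 1.63% of kept cells in control and 3.93% in CFA, and erythroid cells 0.79% and 2.65%. An FB sub-cluster led by Cxcl9 and other interferon response genes held 22 control cells and 1 CFA cell, beside the SGC cluster named above. With 1 library per condition these differences cannot be told apart from CFA.

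The cells with a Plvap UMI were compared with the other ECs of their library. In control, 34 ECs had one, with a median of 1754 UMIs against 1310 in the 247 others, and 5 of the 34 had a doublet score above 0.25. Of the members with UMIs in both sets of cells, Slc2a1 had the largest difference, at 283 CPM in ECs with Plvap (7 of 34 cells with a UMI) and 1112 CPM in those without (151 of 247 cells), log2 -1.98 (-2.72 to -1.32). Cldn5 was 1771 against 3527 CPM, log2 -0.99 (-1.28 to -0.72), Slco1a4 1399 against 2087 CPM, log2 -0.58 (-0.90 to -0.27), and Abcb1a 1845 against 2645 CPM, log2 -0.52 (-0.80 to -0.25). Ocln had 0 UMIs in the 34 cells, which allows up to 44.6 CPM at 3 counts, and 42 in the others, at 99.8 CPM. Abcg2 at 1429 and 1435 CPM, Tjp1 at 551 and 532 CPM and Mfsd2a at 461 and 402 CPM did not divide with Plvap, with intervals that included 0. In the CFA library only 6 ECs had a Plvap UMI. None of the 6 had a Slc2a1 UMI, which allows up to 239 CPM at 3 counts, against 112 of the 154 others at 1101 CPM, and Cldn5 was 1595 against 3675 CPM, log2 -1.20 (-1.92 to -0.57). Ocln also had 0 UMIs in the 6, but its bound of 239 CPM lies above the 112 CPM of the others. The depth thus leaves Ocln undecided in CFA. Abcg2 was higher in these 6, at 2312 against 1455 CPM, log2 0.67 (0.071 to 1.21).

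Some genes of the barrier lists also divided with Plvap. Slco1c1 had 0 UMIs in the 34 control ECs with Plvap and was found in 98 of the 247 others. Foxq1, a transcription factor gene, had 0 UMIs in the 34 and was found in 47 of the others. Lef1, another transcription factor gene of the lists, was 119 against 169 CPM in control, where log2 -0.503 (-1.77 to 0.553) included no difference. Cav1, which encodes the coat protein of caveolae, was higher in ECs with Plvap, at 1235 against 587 CPM, log2 1.07 (0.70 to 1.44) in control, and at 797 against 571 CPM in CFA, where log2 0.482 (-0.607 to 1.40) included no difference. Cdh5 and Pecam1, general endothelial junction genes, stood at 685 against 687 CPM and 938 against 896 CPM in control, and in both libraries their intervals included 0. Of the ECs with Plvap, 21 of 34 in control and 6 of 6 in CFA lay in sub-clusters 0 and 3. Another 6 control cells lay in sub-cluster 2, and 7 in sub-cluster 5, which is led by glial genes and has 20 control ECs. In its control cells Cldn5 was 1687 CPM against 3471 CPM in the other ECs, and Abcb1a 1275 against 2682 CPM. Slco1a4 was 961 against 2112 CPM and Slc2a1 569 against 1048 CPM, while Ocln was 118 against 82.4 CPM. Over all their control cells, sub-clusters 0, 2 and 3 had Foxq1 at 80.2, 48.1 and 17.2 CPM and Slco1c1 at 211, 1123 and 68.8 CPM. Sub-clusters 1 and 4, which had 0 Plvap UMIs, had Foxq1 at 259 and 472 CPM and Slco1c1 at 1395 and 1415 CPM. The part of the sub-clusters, 5 included, in the differences between ECs with and without Plvap was not tested.

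**Figure D4:**
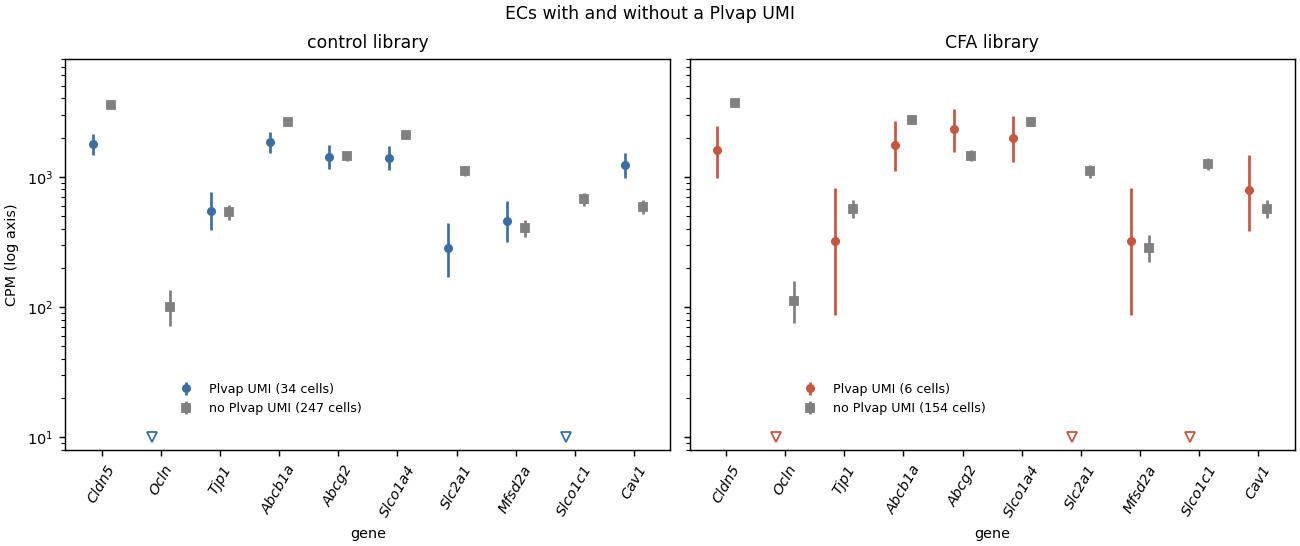
Level in CPM (log axis) of 8 barrier genes, Slco1c1 and Cav1 in ECs with a Plvap UMI (coloured circles) and without one (grey squares), control library on the left and CFA library on the right, with exact 95% Poisson intervals and open triangles for 0 UMIs. In both libraries Cldn5 is lower in ECs with Plvap, Slco1c1 is at 0, and Slc2a1 is lower or at 0. Ocln is at 0 in ECs with Plvap too, which in the few such cells of CFA leaves a difference undecided.

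Outside ECs, both efflux pumps were found together in a small group of FBs. FBs were divided again without the barrier genes, and sub-cluster 5, with 5 control cells (0.843% of FBs, 0.274% to 1.96%) and 33 CFA cells (8.19%, 5.7% to 11.3%), was arachnoid barrier-like by 5 markers and led by the transporter genes Slc26a7 and Slc4a10. The larger sub-cluster 0, with 190 control and 101 CFA cells, took the same name by 4 markers. However, it had 0 and 1 UMIs of the arachnoid barrier marker Slc47a1, against 21 and 99 in sub-cluster 5. In sub-cluster 0 Abcb1a had 5 UMIs in 1 of the 190 control cells and 0 in the 101 CFA cells, and Abcg2 was 54.3 and 61.2 CPM. In sub-cluster 5 Abcb1a stood at 510 CPM in control (12 UMIs) and 183 CPM in CFA (18 UMIs), against 5.35 and 5.65 CPM in the other FBs, log2 6.58 (5.05 to 8.28) and 5.01 (3.24 to 7.42). Abcg2 stood at 298 and 294 CPM against 55.3 and 43.3 CPM, log2 2.43 (1.06 to 3.56) and 2.76 (1.92 to 3.62). Cldn5 had 0 UMIs in these cells, which allows up to 127.6 CPM in control and 30.45 CPM in CFA at 3 counts. The other FBs also held only 2 and 1 Cldn5 UMIs. The cells of sub-cluster 5 carried Cldn11, a claudin of the arachnoid and of myelin, at 1063 and 660 CPM against 200 and 305 CPM, log2 2.41 (1.75 to 3.01) and 1.11 (0.67 to 1.54). Over all FBs, Abcb1a was 15.7 CPM in control and 33.4 CPM in CFA, log2 1.09 (0.11 to 2.08), while most cells of sub-cluster 5 came from the CFA library, and how much of this ratio follows from their number was not tested. The control value rests on 5 cells with a median of 4885 UMIs, against 2206 UMIs in the 33 CFA cells.

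Among neurons, Abcg2 was concentrated in some clusters. It was highest in the cluster led by Dcdc2a, Sstr2 and Tmc5, at 119 CPM in control (420 UMIs, 112 cells) and 118 CPM in CFA (253 UMIs, 76 cells), where 86.6% and 86.8% of cells had a UMI. In the cluster led by Vmn1r85, Chrnb4 and Chrna3 it was 57.1 and 66.1 CPM, with a UMI in 51.8% and 62.2% of cells. In the cluster led by Mrgprd, a receptor gene of nociceptors of the skin, it was 2.149 and 1.502 CPM, and 12.4% and 7.35% of cells had a UMI. Depth differed between these clusters, with medians of 31508 and 28239 UMIs in the Dcdc2a cluster and 62988 and 61276.5 UMIs in the Mrgprd cluster, and its part in the shares of cells was not tested. All of these levels lay below that of ECs, at 1435 and 1493 CPM. Slc2a1 was spread more evenly over neuron clusters, from 11.6 to 47.8 CPM in control and from 16.6 to 37.5 CPM in CFA. The few Plvap UMIs of neurons, 58 in control and 28 in CFA, were at their highest level in the Dcdc2a cluster, at 4.53 and 6.53 CPM, and the Trpm8 cluster, at 4.51 and 3.30 CPM.

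**Figure D5:**
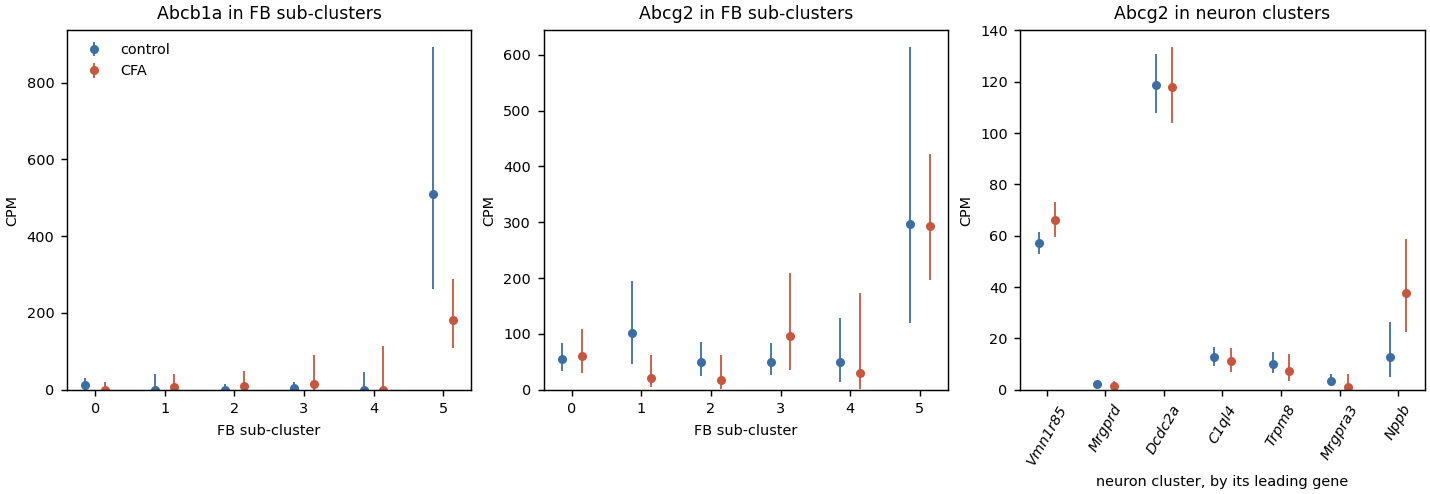
Level in CPM of Abcb1a (left) and Abcg2 (middle) in FB sub-clusters 0 to 5 and of Abcg2 in the 7 neuron clusters (right), control in blue and CFA in red, with exact 95% Poisson intervals. FB sub-cluster 5 stands above the others for both pumps, and Abcg2 of neurons is highest in the Dcdc2a cluster, at 119 and 118 CPM.

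Other claudins were not endothelial. Of 25 claudin symbols in the files, 8 had at least 50 UMIs in any class. Cldn5, which is part of the gate, was the only one of these with its highest level in ECs. Cldn11 was highest in OLCs, at 5642 CPM in control and 3852 CPM in CFA, followed by FBs at 217 and 361 CPM. Cldn19, a claudin of the Schwann cell's myelin, was highest in myelinating Schwann cells at 764 and 766 CPM. Cldn1, a claudin of the perineurium, was highest in FBs at 61.1 and 58.8 CPM, and so was Cldn10, at 34.9 and 27.0 CPM. Cldn14 was found in OLCs at 143 and 95.6 CPM. Cldn9 had 110 and 43 UMIs in neurons, a level of 2.85 and 2.56 CPM, and 0 in ECs. In ECs, Cldn19 had 14 and 3 UMIs, of which 14 and 2 lay in sub-cluster 5, led by glial genes. Cldn12 had 5 and 2 UMIs there, Cldn1 1 and 0, Cldn11 1 and 0, and Cldn10 0 in both, each counted over all ECs. Near copies of the members were also low in ECs: Abcb1b, the other P-glycoprotein gene of the mouse, had 12.3 and 10.7 CPM there and was highest in ICs at 42.7 and 64.5 CPM, and Slco1a5 had 1 and 0 UMIs in ECs. Reads that a pair of near copies shares could be split by the counting.

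Genes of the same pathways were described from 5 lists. For the counts that follow, 4.01% of the 2866 genes with at least 50 endothelial UMIs were at least 4 times higher in ECs than in any other class, 1.43% were at least 2-fold higher in CFA and 2.83% at least 2-fold lower. Of 25 other junction genes in the files, 12 had at least 50 endothelial UMIs, 2 were at least 4 times higher in ECs than in any other class (Cdh5 and Pecam1), and 1 was at least 2-fold lower in CFA, Jam3, a junctional adhesion molecule, at 131 and 49.9 CPM, log2 -1.39 (-2.34 to -0.544). The junction genes with the highest level in ECs were Ctnnb1, which encodes beta-catenin of adherens junctions and Wnt signalling, at 1115 and 1094 CPM, and Esam at 1178 and 927 CPM. Of 9 efflux genes only Abcc4, a pump of cyclic nucleotides and conjugated anions, had 50 UMIs, at 77.9 and 150 CPM, log2 0.94 (0.28 to 1.62). Of 25 uptake genes 14 had enough UMIs, 4 were endothelial by the same measure (Slco1c1, Slc7a5, Slc7a1 and Slc19a3, of which Slc7a5 and Slc19a3 are named for their values), and 1 was at least 2-fold higher in CFA, Slco1c1, at 580 and 1205 CPM, log2 1.05 (0.82 to 1.29). The prostaglandin carrier Slco2a1 ran the other way with 41 and 12 UMIs, at 84.0 and 42.8 CPM, log2 -0.974 (-2.04 to -0.0186). Slc3a2, the shared partner chain of several amino acid carriers, had the highest level of the uptake list, at 1406 and 1322 CPM, and the taurine carrier Slc6a6 stood at 603 and 727 CPM, log2 0.271 (0.00627 to 0.534). Of 7 caveola genes all 7 had enough UMIs, 1 was endothelial by this measure, Cavin2, at 580 and 1044 CPM, and 0 passed 2-fold. Cavin1, a coat protein gene of caveolae, was 500 and 634 CPM, log2 0.343 (0.0564 to 0.628), and Emp1 was 420 and 299 CPM, log2 -0.489 (-0.873 to -0.116). The barrier programme list holds mostly Wnt signalling and transcription factor genes that build barrier vessels, and Ctnnb1 stands in it as well as in the junction list. Of its 19 genes, 15 had enough UMIs and 5 were endothelial (Lef1, Sox17, Sox18, Sox7 and Foxq1, of which Sox18 and Sox7 are named for their values). Of these, 2 were at least 2-fold higher in CFA, Lef1 at 162 and 339 CPM, log2 1.06 (0.62 to 1.51), and Foxq1 at 141 and 310 CPM, log2 1.13 (0.66 to 1.61). The median log2 ratios were -0.12 for junction, 0.27 for uptake, 0.048 for caveola and 0.27 for barrier programme genes, beside 0.045 for all genes tested. Within sub-cluster 1, Slco1c1, Lef1 and Foxq1 were higher in CFA by log2 0.41 (0.083 to 0.74), 0.97 (0.14 to 1.87) and 0.77 (0.039 to 1.54). In sub-cluster 0 Lef1 was higher, at 100.2 and 279 CPM, log2 1.48 (0.10 to 2.87), and Foxq1 by 1.80 (0.352 to 3.32). In sub-cluster 5 both were lower, as was Foxq1 in 6, with intervals that included no difference. Slco1c1 had 0.709 (0.219 to 1.20) in sub-cluster 2, 0.119, 0.287, 0.256 and -0.15 in 0, 3, 4 and 5, and 7 and 0 UMIs in 6. Each of these ratios lay below its 1.05 over all ECs. Sub-cluster 1, which was high in Slco1c1, held 12.8% of control ECs and 35.0% of CFA ECs. The part of this in the ratio was not tested.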

How the data were processed

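The data are 2 BD Rhapsody single-cell libraries of mouse TG, 1 per condition. The authors deposited raw UMI counts of each gene in each cell, without normalization, for the cells their pipeline called. Per the labels' processing notes the build was GRCm38 and fastp was used; the counting tool, the annotation and its use of strand are not given in the sources used here. The tissue was dissociated with papain and cleared on a density gradient, which can change the shares of cell types.

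Cells with at least 150 genes and at most 25% mitochondrial UMIs were kept. Both libraries were clustered together in R 4.3.3 with Seurat 5.3.0 (2000 variable genes, 20 principal components, resolution 0.8), without the members, Flt1 and the barrier lists, 95 genes in all, giving 23 clusters in 10 classes; an oligodendrocyte precursor cluster stayed unnamed. A cluster took the name whose markers stood highest, with at least 3 markers at 25% of their highest cluster and in 10% of cells. Rules that leave clusters led by other cells' markers unnamed were set after the clusters were seen. Doublets were scored with Scrublet in scanpy 1.11.5 (expected rate 0.05) and kept, with 122 control and 25 CFA cells above 0.25, among them 16 and 3 ECs. For each class of a library the UMIs of a gene were added up and scaled to CPM. Intervals are exact (Poisson, Clopper-Pearson for shares, conditional binomial for ratios) at 95% and cover counting error only. A count of 0 was set at 3 counts for bounds. For shares of cells with a UMI each cell was also thinned to 500 UMIs. Counts of genes use those with at least 50 UMIs in ECs of both libraries together. The calls and intervals were tested on simulated Poisson counts. These follow the counting model that the intervals assume and hold no variation between cells or mice, so they cannot test for it. Known ratios were set in genes with more endothelial UMIs than Plvap or Ocln. Depth was 48916096 UMIs in 7298 control cells and 22096268 UMIs in 4080 CFA cells.

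The members and lists were chosen with earlier results of these data known. The genes named were taken from the members and Flt1, the 4 genes of each list with the highest endothelial CPM, the 3 list genes at either end of the CFA over control ratio, claudins with at least 50 UMIs in a class, the 3 genes most like each member, and near copies of members, not all of which are printed; others are named where a count or cluster turned on them. Alternatives were other gates, a stricter filter (300 genes, 10% mitochondrial), doublets left out, equal weights for cells, thinning, totals without mitochondrial genes, centred ratios, resolutions of 0.4 and 1.6 and a minimum of 10 UMIs. Giving each sub-cluster the same weight in both libraries, and leaving out sub-clusters 1 and 5, were added after seeing the data. Promoters came from RefSeq (8 of 9 members matched, not Plvap), and gene positions from GENCODE M21, where all 9 members were found.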

Additional observations from a re-analysis of the deposited data

How the results depend on the processing

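No paired analysis was possible because each condition has 1 library. All 9 members were highest in ECs in both libraries under every alternative, except with the gate applied without the cluster, where 7 were in CFA. The number at least 4 times higher in ECs was 6, or 5 with a gate of Pecam1 and Cdh5, with thinned cells, or with sub-cluster 1 left out. With cells thinned to 500 UMIs the number of members past 2-fold was 0, since Plvap then had fewer than 50 UMIs and only 698 genes were tested. Of 144 ratios between the libraries, 1 whose interval excluded 0 reversed. Cldn5 was -0.087 with each sub-cluster given the same weight in both libraries, where the median of the members was -0.087 as well. In that setting Slc2a1 was -0.241 and Ocln -0.093, both of which had intervals that included 0 over all ECs. The genes past 2-fold numbered 122, but 262 with the gate alone, 28 with thinned cells, and 1314 of 8262 at a minimum of 10 UMIs, and the endothelial genes 115, or 55 with thinned cells. Depth limits Ocln, with 42 and 30 UMIs in ECs, and Plvap, with 57 and 10.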

Other observations

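Some further genes of the junction, uptake and barrier programme lists, of which Slc16a1, Tfrc and Slc7a5 are named for their values, differed between CFA and control ECs with intervals that exclude 0, which cover counting error alone. Slc16a1, the lactate and ketone carrier MCT1, stood at 125 CPM in control and 235 CPM in CFA, log2 0.91 (0.39 to 1.44). Tfrc, the transferrin receptor, stood at 195 and 289 CPM, log2 0.57 (0.12 to 1.01), and Apcdd1, a target and inhibitor of Wnt signalling, at 203 and 307 CPM, log2 0.59 (0.16 to 1.03). Slc7a5, the large neutral amino acid carrier, went the other way, at 359 and 271 CPM, log2 -0.40 (-0.81 to -0.0085). Esam, an endothelial adhesion molecule of the junction, was 1178 and 927 CPM, log2 -0.35 (-0.56 to -0.13). Within sub-cluster 1, which held 12.8% of control ECs and 35.0% of CFA ECs, Tfrc was 394 and 416 CPM and Slc16a1 225 and 275 CPM. Apcdd1 there was 180 and 375 CPM, and Slc7a5 529 and 292 CPM. The part of the sub-cluster shares in these ratios was not tested. The share of all genes tested with intervals that exclude 0 is not given here. None of the genes named passed 2-fold, and with 1 library per condition none has a replicate check.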
